A study of Mus musculus with 4 samples.

Results

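The 6 ganglioside synthesis genes St8sia1, St3gal5, B4galnt1, St8sia5, St3gal2 and B3galt4 were examined in single cells of the developing mouse molar. They were found by symbol among the 32285 genes counted. St8sia1 was chosen by its measured level, which was higher in epithelium at P1 than at E15.5, and the other 5 were chosen as its partners in the pathway. The St8sia1 epithelial stage difference is therefore a description of the choice and is not evidence for it.

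The samples were wild-type mice with the genotype label WTB6. Whole tooth organs of the maxillary and of the mandibular molar were dissected from embryos at E15.5 (given as E15 in the age label) and from newborn pups at P1, with no other allele and no treatment. Each of the 4 libraries came from 1 stage and 1 jaw and pooled 6 tooth organs, so no comparison had a replicate and no test was made. The intervals below are exact 95% intervals that cover counting error only, not differences between animals or dissections.

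Gangliosides are sphingolipids that carry sialic acid on a sugar chain, and they are built in the Golgi one sugar at a time from lactosylceramide. St3gal5 (GM3 synthase) adds the first sialic acid, and St8sia1 (GD3 synthase) adds a second to that and so opens the b-series. B4galnt1 (GM2/GD2 synthase) and B3galt4 extend the chain, St3gal2 caps its end with a further sialic acid, and St8sia5 makes more highly sialylated forms. GD3 is known from neural progenitors and other immature cells, and the complex gangliosides are abundant in neurons.

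Barcodes with at least 1000 UMIs (unique molecular identifiers, each standing for a captured transcript) were used. After the shared barcodes described next were removed, 44144 of 56940 deposited barcodes remained. They comprised 10073 cells in E15.5 maxillary, 6911 in E15.5 mandibular, 17040 in P1 maxillary and 10120 in P1 mandibular molars. Total deposited UMIs were 109723360, 86659227, 128812956 and 139873101 in the same order, and median UMIs per used cell were 9596, 11234, 4019 and 10390.

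The 2 P1 libraries held 7131 cell barcodes in common, against 28 to 70 for the other pairs of libraries. Their median depth was 12088 UMIs on the maxillary side and 2870 on the mandibular side, and 6690 of those that reached 1000 UMIs were dropped from P1 mandibular. Hand2, a transcription factor of the mandibular mesenchyme, stood at 0.906 CPM (UMIs per 1000000 UMIs of the class) in maxillary and 22.0 in mandibular mesenchyme at E15.5, and at 0.0532 and 9.70 at P1. In the mesenchymal cells with shared barcodes it stood at 0.0618 in the maxillary data and at 0.0648 in their dropped mandibular copies. By Hand2 summed over mesenchyme, the jaw labels thus held for the mesenchymal cells that were used, and their dropped copies had the maxillary pattern. Pitx1, counted beside it, separated the jaws less. It stood at 71.8 in maxillary and 97.2 in mandibular mesenchyme at E15.5, and at 9.49 and 33.5 at P1. The labels of epithelial cells were not assessed in this way.

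Cells were clustered within each library and the clusters were named from marker genes, with the ganglioside genes left out of the clustering. In epithelium, the 6 epithelial markers (Epcam, Cdh1, Krt5, Krt14, Trp63 and Perp) each reached 10 CPM in every library, with sums of 5324, 5322, 3832 and 4856 CPM in E15.5 maxillary, E15.5 mandibular, P1 maxillary and P1 mandibular molars. Markers of other cells were also counted in it. The 6 mesenchymal markers summed to 1322, 587, 668 and 769 there (5 or 6 of them at 10 CPM or more, led by Col1a1 or Col1a2), and the 6 erythroid markers to 8658, 8679, 1828 and 3281 (4 or 5 of them, led by Hbb-bs), and their part in the epithelial values was not tested. The epithelial class held 1004, 142, 2990 and 1673 cells, and the mesenchymal class held 4880, 3142, 8391 and 4592. Clusters without a clear name took 12%, 2.0%, 3.76% and 20.1% of the cells. P1 maxillary epithelium also contained 584 nasal-epithelium-like cells, and that library alone had a neuron-like class (778 cells). Muscle was found in every library (432, 746, 255 and 504 cells in the same order), so each dissection reached beyond the tooth.

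In the mm10 annotation, St8sia1 (ENSMUSG00000030283) lies on the minus strand at chr6:142821545-142964452, a span of 142908 bases of which 6.54% is exonic, and it overlaps the noncoding gene Gm7457 on the other strand. St3gal5 (chr6:72097592-72154571, plus strand) overlaps Gm29438 on its own strand and 4933431G14Rik on the other. B4galnt1 (chr10:127165225-127172330, plus) overlaps Slc26a10 on the opposite strand. St8sia5 (chr18:77185839-77258771, plus) and St3gal2 (chr8:110919922-110972480, plus) are multi-exon genes as well, of which St8sia5 overlaps Gm7276 and Gm15957 on the opposite strand, and St3gal2 overlaps Gm26816 on the opposite and the small nucleolar RNA gene Gm26132 on its own strand. B3galt4 (chr17:33949909-33951488, minus) is a single exon.

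St8sia1 was scarce in the whole E15.5 libraries and far more abundant at P1. Its level, given here and below in CPM, was 1.42 in E15.5 maxillary, 1.19 in E15.5 mandibular, 26.5 in P1 maxillary and 50.9 in P1 mandibular cells. St3gal5, at 26.4, 33.4, 31.9 and 37.3, had no such gap between stages, and neither had St3gal2 (22.4, 19.4, 18.8 and 21.2) nor B3galt4 (3.84, 3.29, 3.90 and 3.24). B4galnt1 stood at 4.35, 3.78, 7.15 and 7.30. St8sia5 was near the limit of detection, with 22, 41, 8 and 16 UMIs in whole libraries. Levels were not divided by transcript length, so they are compared between cells and not between genes.

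**Figure D1:**
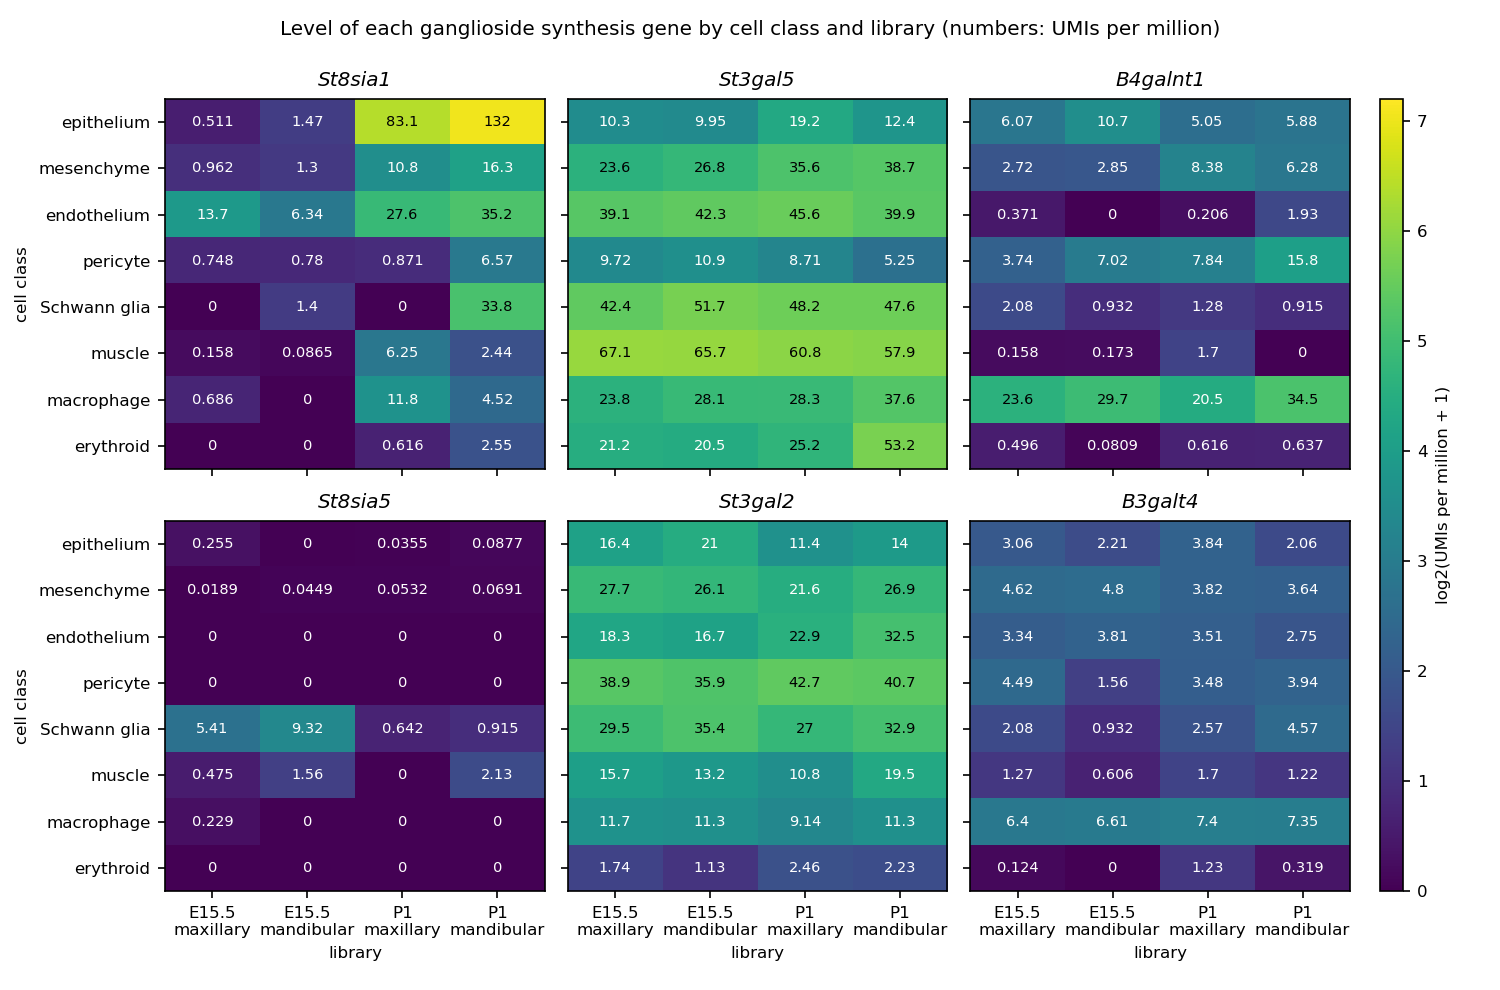
Level of each of the 6 genes (CPM, printed in each tile; color on a log2 scale after adding 1) in 8 cell classes (rows) of the 4 libraries (columns). St8sia1 is bright in P1 epithelium (83.1 and 132) and dark in E15.5 epithelium (0.511 and 1.47), St3gal5 is high in muscle, B4galnt1 in macrophages, and St8sia5 is seen in E15.5 Schwann glia.

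In epithelium, St8sia1 was counted 8 times in E15.5 maxillary cells (0.511 CPM, interval 0.221 to 1.01) and 4 times in E15.5 mandibular cells (1.47, interval 0.402 to 3.77). At P1 it was counted 2337 times in maxillary (83.1, interval 79.7 to 86.5) and 2999 times in mandibular epithelium (132, interval 127 to 136). Both P1 levels were above both E15.5 levels. The log2 ratio of P1 to E15.5 was 7.35 (6.36 to 8.56) in the maxillary and 6.48 (5.12 to 8.36) in the mandibular molar. The makeup of the epithelial class differed between these stages. At E15.5 it held 513 suprabasal-oral-epithelium-like of 1004 maxillary cells, and 1 cluster of 142 mandibular cells. At P1 it held 245 maxillary and 619 mandibular ameloblast-like cells, a class not found at E15.5. The part of this makeup in the ratios was not tested.

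Of 9622 genes with a mean of at least 10 CPM in epithelium, 429 (4.46%) were at least 2-fold higher at P1 in both jaws and 240 (2.49%) at least 2-fold lower. St8sia1, St3gal5 and St3gal2 reached that mean, St8sia1 only through its P1 levels, since both of its E15.5 levels were below 10 CPM. St8sia1 was among the higher genes, as its choice fixed, and none of the 3 was among the lower ones. The median log2 ratio of the 9622 genes was 0.05 in the maxillary and 0.00 in the mandibular molar.

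The share of epithelial cells with a St8sia1 UMI was 0.697% and 2.82% at E15.5 and 19.1% and 37.8% at P1, in the maxillary and mandibular molar. With each cell thinned to 2000 UMIs, none of 944 and 123 E15.5 cells kept a St8sia1 UMI, which allows up to 0.390% and 2.96% of cells with a UMI at that depth and sets no limit on the share of cells that express the gene. Thinned P1 shares were 10.4% (9.21 to 11.6%) of 2567 maxillary and 21.2% (19.2 to 23.3%) of 1552 mandibular cells. Erythroid cells, in which the gene is not expected, gave 0.174% and 0.425% at P1 when thinned. Whether these UMIs came from free RNA of the suspension was not tested. Their median depth was 1931 and 6337 UMIs, against 6314 and 11807 in epithelium.

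Within P1 epithelium St8sia1 was concentrated in a few clusters. The ameloblast-like clusters, led by the enamel matrix genes Amelx and Enam with Calb1 and the enamel protease Mmp20, carried 382 (361 to 404) in maxillary (245 cells) and 383 (369 to 397) in mandibular cells (619). The ameloblast-like levels of the 2 jaws differed by a log2 ratio of -0.0030 (-0.10 to 0.09). Inner-dental-epithelium-like clusters came next among the named ones, with 144 (136 to 153) in 564 maxillary and 40.4 (30.7 to 52.2) in 185 mandibular cells.

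In the mandibular library a further cluster of 367 cells, led by Cyp26a1, Frem2, Stmn2 and Igfbpl1, carried 285 (270 to 300). Its leading genes held more markers of another class than of epithelium, so it was left unnamed and stands outside the epithelial class. Frem2 and Igfbpl1 also led the maxillary inner-dental-epithelium-like cluster. The inner dental classes of the 2 jaws were thus made of clusters with different leading genes, and their levels are set side by side without reading a jaw difference from them.

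The remaining P1 epithelium was low in St8sia1. Clusters led by Odam, a gene of the reduced and junctional enamel epithelium, stood at 2.50 (1.63 to 3.66) in maxillary and 4.03 (2.66 to 5.87) in mandibular molars. The mandibular cluster led by Enpp2 and Jph4 stood at 6.74 (4.77 to 9.25). Suprabasal-oral-epithelium-like cells had 1.11 (0.228 to 3.24) and 5.85 (1.90 to 13.7). The epithelium given no subclass was made of the Odam-led and Reg3g-led clusters in maxillary and of the Odam-led and Enpp2-led clusters in mandibular molars, at 2.24 and 5.27. Ameloblast-like cells stood above this unsubclassed epithelium by log2 ratios of 7.41 (6.85 to 8.03) and 6.18 (5.83 to 6.56), which do not take in the inner-dental-, suprabasal-, nasal- and gland-like clusters.

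The 2 nasal-epithelium-like clusters of the P1 maxillary library differed from each other. The one led by Dynlrb2 and Meig1, genes of ciliated cells, had 15 St8sia1 UMIs in 76 cells (20.3 CPM, 11.3 to 33.4). The one led by Gstm1 and Otx2os1 had 2 UMIs in 508 cells (0.760, interval 0.0920 to 2.74). The Reg3g-led cluster of the same library had none in 255 cells, with an upper limit of 3.14.

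No ameloblast-like cluster was found at E15.5. The inner-dental-epithelium-like cells of E15.5 maxillary molars (403 cells) had 2 St8sia1 UMIs, or 0.437 (0.0529 to 1.58), against 144 at P1, a log2 ratio of 8.37 (6.51 to 11.4). In suprabasal-oral-epithelium-like cells of the same jaw the levels were 0.666 at E15.5 and 1.11 at P1, a log2 ratio of 0.73 whose interval reached from -1.89 to 2.96. The 142 epithelial cells of the E15.5 mandibular molar formed 1 cluster, in which St8sia1 stood at 1.47 while 6 ameloblast markers (Amelx, Ambn, Enam, Mmp20, Odaph and Sp6) summed to 312, of which Amelx made 224.

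**Figure D2:**
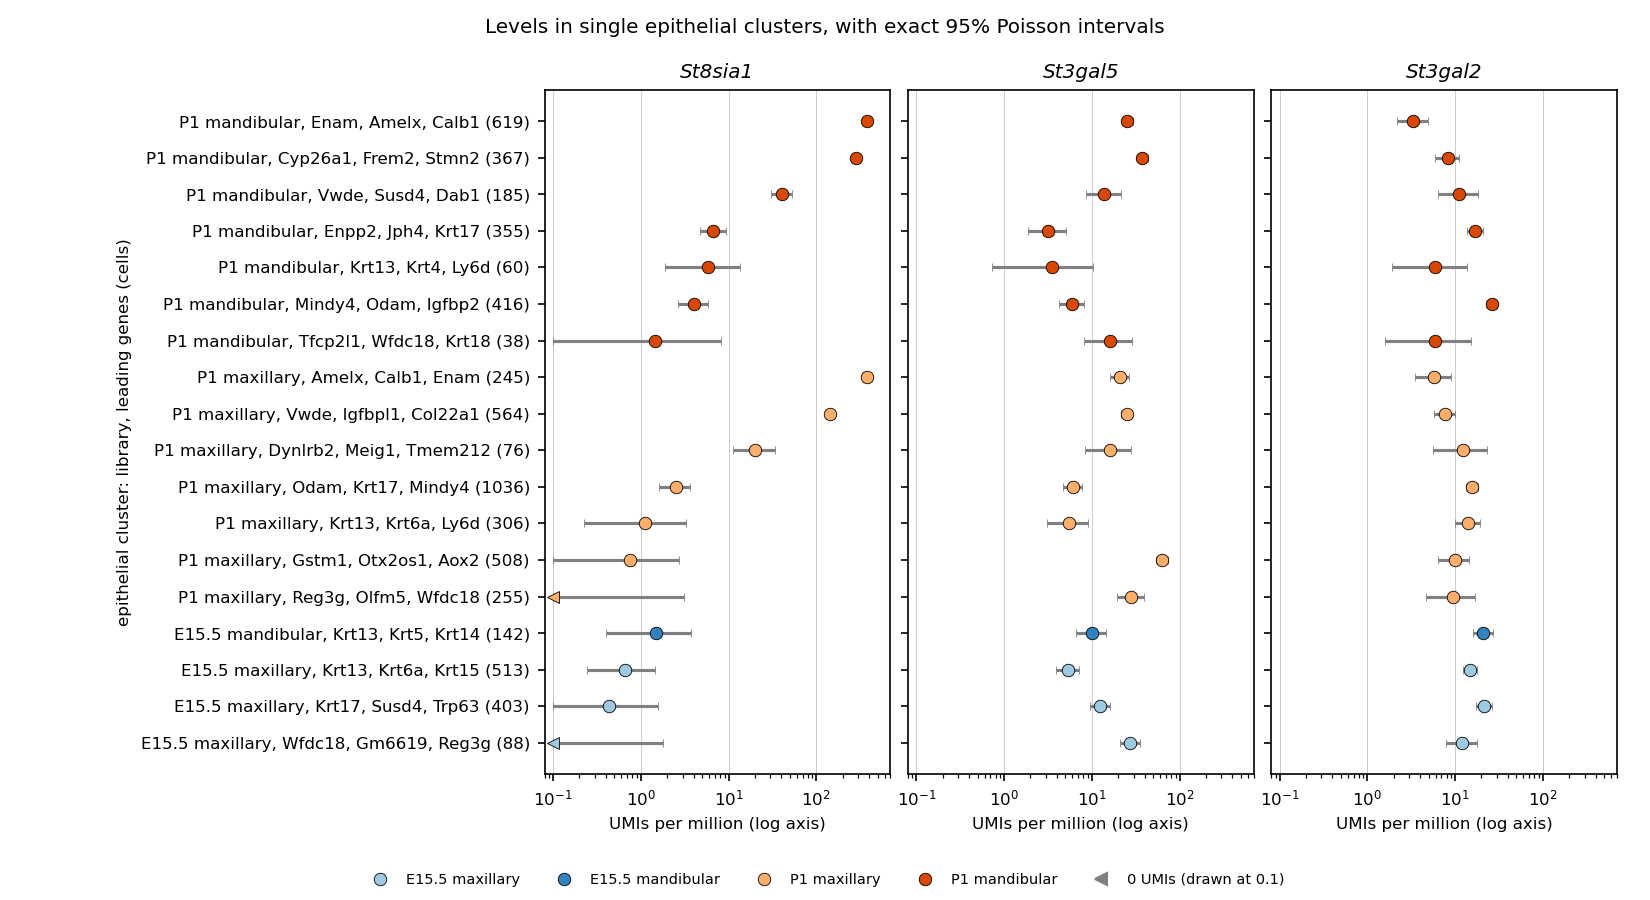
Levels of St8sia1, St3gal5 and St3gal2 (CPM, log axes) in each epithelial cluster of the 4 libraries, with the leading genes and the number of cells, together with the unnamed Cyp26a1-led cluster of P1 mandibular molars; bars are exact 95% Poisson intervals. St8sia1 spans from 0 to 383, St3gal2 is lowest in the mandibular ameloblast-like cluster (3.34), and St3gal5 is highest in the Gstm1-led nasal-like cluster (63.8).

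The shared barcodes bear on the P1 maxillary values. In P1 maxillary epithelium, 1547 cells (51.7%) had a barcode also found in the mandibular library, and St8sia1 stood at 104 (99.3 to 108) in them. In the other 1443 cells it stood at 11.4 (8.87 to 14.3). Without the shared barcodes in either library, the log2 ratio of P1 to E15.5 in maxillary epithelium was 4.47, and St8sia1 was again the member at least 2-fold higher in both jaws.

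The cells with and without shared barcodes differed in makeup. Shared barcodes made up 95.5% of the ameloblast-like and 87.6% of the inner-dental-epithelium-like cluster, but 0.197% of the Gstm1-led and 0.784% of the Reg3g-led cluster and none of the Dynlrb2-led one. Inside the inner-dental-epithelium-like cluster the level was 144 (135 to 153) in shared and 169 (116 to 239) in 70 other cells, with overlapping intervals. Of the ameloblast-like cells, 11 had no shared barcode, and these held 18 St8sia1 UMIs, or 1042 CPM (618 to 1647).

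Mesenchyme had much less St8sia1 than ameloblast-like cells but also had more at P1. The levels were 0.962 (0.716 to 1.27) in E15.5 maxillary, 1.30 (0.989 to 1.68) in E15.5 mandibular, 10.8 (10.1 to 11.6) in P1 maxillary and 16.3 (15.3 to 17.4) in P1 mandibular mesenchyme. The log2 ratio of P1 to E15.5 was 3.49 (3.08 to 3.93) in maxillary and 3.65 (3.26 to 4.06) in mandibular molars. This measure was not among those by which St8sia1 was chosen, although it comes from the same libraries. Markers of other cells in mesenchyme also differed between stages. In the order of the levels above, the 6 epithelial markers summed to 25.4, 7.43, 38.5 and 69.7 CPM there. The 6 erythroid markers summed to 10139, 10909, 1512 and 3735, and the 8 muscle markers to 31.6, 57.7, 16.2 and 180. Their part in the mesenchymal values was not tested. In P1 maxillary mesenchyme the level was 12.3 (11.4 to 13.1) in cells with shared barcodes and 2.01 (1.25 to 3.08) in the other 3578 cells, and the log2 ratio without shared barcodes was 1.06.

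Mesenchymal subclasses differed in St8sia1. Mineralizing-mesenchyme-like cells, with the bone and dentin genes Bglap, Dmp1 and Phex in the lead at P1, had 23.6 (20.4 to 27.3) in maxillary and 50.7 (45.7 to 56.2) in mandibular molars at P1. The E15.5 mandibular cells of that name, led by Ibsp and Spp1, had 3 UMIs, or 0.795 (0.164 to 2.32), a log2 ratio of 6.00 (4.44 to 8.28). This ratio sets clusters with different leading genes side by side. The P1 mandibular cluster led by Spp1 and Ibsp (203 cells) was placed in the mesenchyme given no subclass. Dental-papilla-like cells had 5.20 (3.26 to 7.87) at E15.5 and 17.1 (16 to 18.9) at P1 in mandibular and 9.14 (8.23 to 10.1) at P1 in maxillary molars. At E15.5 the mandibular class was 1 cluster (363 cells, led by Col8a1 and Tfap2b), and at P1 it was 4 clusters, led by Pcp4, Hist1h1b, Grik1 and Cntn6, so the stages compare different clusters under 1 name. The class was also made of partly different clusters in the P1 jaws. A cluster led by Csmd1 was in it in maxillary molars (1098 cells), while the mandibular cluster led by the same gene (661 cells) was left unnamed and outside mesenchyme, and clusters led by Pappa and Cntn6 were in it in mandibular (550 cells) but not in maxillary molars (558 cells).

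Tendon-like cells did not follow the other mesenchyme. St8sia1 stood at 8.46 (3.65 to 16.7) in E15.5 maxillary, 7.96 (4.92 to 12.2) in E15.5 mandibular and 5.87 (3.68 to 8.88) in P1 mandibular cells, with overlapping intervals. The mesenchyme given no subclass had 0.826 (0.598 to 1.11) and 0.354 (0.183 to 0.618) at E15.5 and 9.62 (8.47 to 10.9) and 6.29 (5.30 to 7.41) at P1. Tendon-like cells thus stood above that mesenchyme at E15.5, and the intervals overlapped in P1 mandibular molars.

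Endothelium was the class with the most St8sia1 in E15.5 maxillary molars. Its levels were 13.7 (10.8 to 17.2) and 6.34 (4.28 to 9.05) at E15.5 and 27.6 (23.2 to 32.7) and 35.2 (29.4 to 41.9) at P1, in maxillary and mandibular molars. The log2 ratios of P1 to E15.5 were 1.01 (0.59 to 1.44) and 2.47 (1.89 to 3.10). At E15.5 the intervals of endothelium and tendon-like cells overlapped in both jaws. At P1 the interval of endothelium overlapped that of mineralizing-mesenchyme-like cells in the maxillary and lay below it in the mandibular molar.

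In the other classes St8sia1 was scarce or uneven between jaws. Schwann-glia-like cells had 0 UMIs in E15.5 maxillary, 3 in E15.5 mandibular, 0 in P1 maxillary and 37 in P1 mandibular molars (33.8, interval 23.8 to 46.6), the last of these in 7 of 98 cells. Macrophages had 0.686, 0, 11.8 and 4.52 CPM, the third of these from 27 UMIs in 0.962% of the cells. Muscle had 0.158, 0.0865, 6.25 and 2.44, pericytes had 0.748, 0.780, 0.871 and 6.57, and erythroid cells had 0, 0, 0.616 and 2.55.

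The ameloblast markers moved with these levels in part. The 6 markers summed to 36521 in maxillary and 61571 in mandibular ameloblast-like cells. In P1 mandibular molars they summed to 1260 in Schwann-glia-like cells, 1055 in endothelium, 904 in mineralizing-mesenchyme-like cells, 306 in dental-papilla-like cells and 202 in erythroid cells. At the ameloblast-like ratio of St8sia1 to these markers, such sums would bring 7.84, 6.56, 5.62, 1.90 and 1.26 CPM of St8sia1, against the 33.8, 35.2, 50.7, 17.1 and 2.55 measured. Amelx was the most abundant marker in these mandibular classes except in mineralizing-mesenchyme-like cells, where Sp6 led, and Odaph was at 0 in maxillary ameloblast-like cells.

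In P1 maxillary molars the marker sum was 60.0 in endothelium and 697 in macrophages. At the ameloblast-like ratio these would bring 0.628 and 7.30, against the 27.6 and 11.8 measured. In erythroid cells, 0.616 was measured and 0.367 would be brought. Over both jaws, the measured level was 1.61 to 2.26 times this amount in erythroid cells and macrophages, and 4.71 to 44.0 times in endothelium, dental-papilla-like and mineralizing-mesenchyme-like cells. Other classes had no such order, with 10.9 times in maxillary and 1.90 times in mandibular muscle, 1.74 and 5.50 times in pericytes, and 29.7, 63.7 and 90.2 times in maxillary chondrocyte-, neuron- and nasal-epithelium-like cells, where the marker sums were 10.2, 7.38 and 5.34. These multiples have no intervals. The erythroid ones rest on 2 maxillary and 8 mandibular St8sia1 UMIs, and the maxillary macrophage one on 27 UMIs in 3 cells. Sp6 was the most abundant marker in maxillary dental-papilla-like (79.9) and mineralizing-mesenchyme-like cells (287). Whether St8sia1 RNA was carried over from ameloblast-like cells was not tested.

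**Figure D3:**
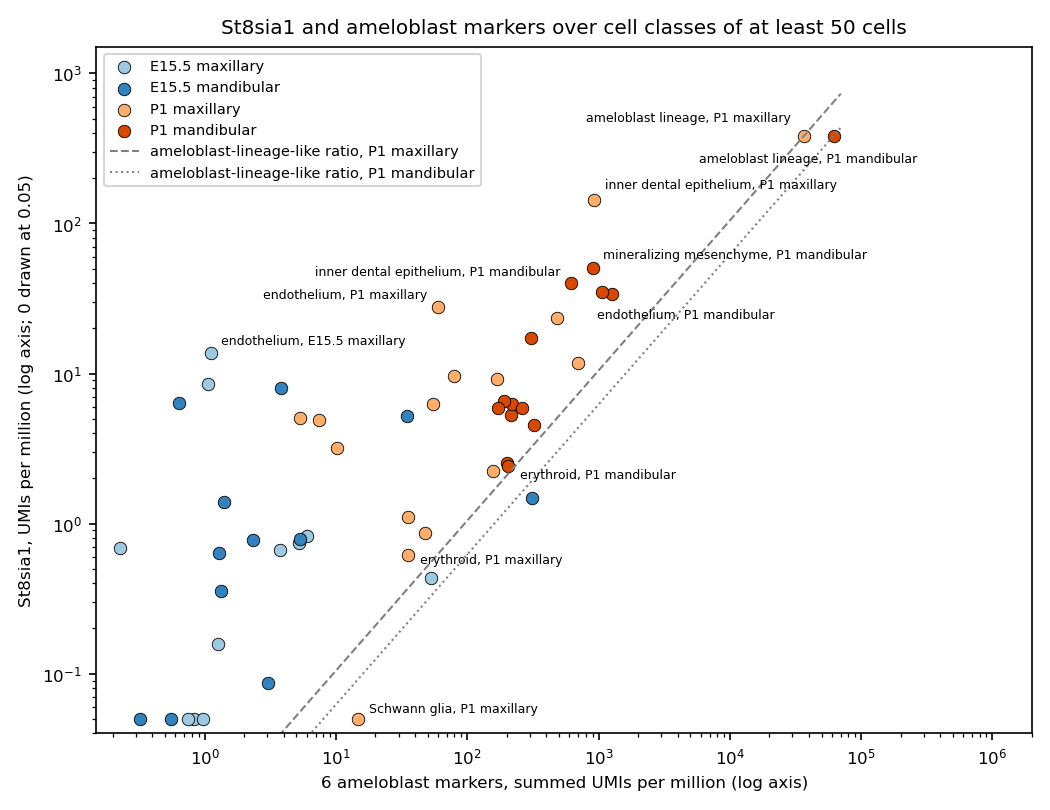
St8sia1 level against the summed level of 6 ameloblast markers (both in CPM, log axes) in each cell class of at least 50 cells; each point is 1 class of 1 library, colored by library, and the lines mark the ratio found in the ameloblast-like cells of each P1 library. Erythroid cells lie close to the lines, and endothelium, inner-dental-epithelium-like and mineralizing-mesenchyme-like cells lie above them.

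Between epithelium and mesenchyme, the log2 ratio of St8sia1 was -0.91 (-2.20 to 0.17) in E15.5 maxillary, 0.18 (-1.74 to 1.61) in E15.5 mandibular, 2.94 (2.82 to 3.06) in P1 maxillary and 3.01 (2.91 to 3.12) in P1 mandibular molars. At E15.5 both intervals included 0, and at P1 both lay well above it. Of 9916 genes tested, 4.94% were at least 2-fold higher in epithelium in all 4 libraries and 7.29% at least 2-fold lower. None of the 3 members tested, which were St8sia1, St3gal5 and St3gal2, was in either set.

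Between jaws, the log2 ratio of maxillary to mandibular St8sia1 in epithelium was -1.53 (-3.43 to 0.65) at E15.5 and -0.66 (-0.74 to -0.58) at P1. In mesenchyme it was -0.44 (-1.01 to 0.13) and -0.59 (-0.73 to -0.45). Without shared barcodes the P1 ratios were -3.53 in epithelium and -3.02 in mesenchyme, so the size of the P1 jaw difference rested on how these barcodes were treated. Genes at least 2-fold apart between jaws at both stages made 0.540% (higher in maxillary) and 0.239% (lower) in epithelium and 0.664% and 0.674% in mesenchyme, with no member among them. The makeup of the P1 epithelial class also differed between jaws, with ameloblast-like cells making 245 of 2990 maxillary and 619 of 1673 mandibular cells and the Cyp26a1-led cluster standing outside the mandibular class, and the part of this makeup in the difference was not tested.

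St3gal5, whose product GM3 is the substrate of the St8sia1 enzyme, was present in every class. In epithelium it stood at 10.3 (8.81 to 12.1) in E15.5 maxillary, 9.95 (6.56 to 14.5) in E15.5 mandibular, 19.2 (17.6 to 20.8) in P1 maxillary and 12.4 (11 to 13.9) in P1 mandibular molars. The log2 ratio of P1 to E15.5 was 0.89 (0.63 to 1.15) in the maxillary and 0.31 (-0.26 to 0.94) in the mandibular molar. The maxillary difference was thus larger than counting error, and 1.87 without shared barcodes, while the mandibular one was within it.

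Epithelial clusters differed in St3gal5. The ameloblast-like clusters had 20.7 (16.1 to 26.3) and 25.4 (21.9 to 29.2), the inner-dental-epithelium-like clusters had 25.1 (21.5 to 29.0) and 13.9 (8.51 to 21.5), and the mandibular Cyp26a1-led cluster had 37.7 (32.6 to 43.5). The Odam-led clusters had 6.05 (4.65 to 7.74) and 5.97 (4.27 to 8.14). Ameloblast-like cells were above the unsubclassed epithelium alone by a log2 ratio of 1.32 (0.85 to 1.79) in maxillary and 2.43 (2.0 to 2.88) in mandibular molars. Clusters with almost no St8sia1 reached similar St3gal5 levels. The Reg3g-led cluster of P1 maxillary molars had 28.1 (19.3 to 39.5) and the Wfdc18-led cluster of E15.5 maxillary molars (88 cells) had 27.6 (20.9 to 35.7), both with 0 St8sia1 UMIs, and the E15.5 inner-dental-epithelium-like cells had 12.4 (9.42 to 16.1).

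Outside the tooth, the Gstm1-led nasal-epithelium-like cluster of P1 maxillary molars had 63.8 (54.5 to 74.2). It weighed on the P1 maxillary epithelial value, since St3gal5 was at 13.8 (12.3 to 15) in epithelial cells with shared barcodes and 37.8 (33.1 to 42.9) in the others, to which the nasal-like and Reg3g-led clusters mostly belonged.

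St3gal5 was lower in epithelium than in mesenchyme in each library, by log2 ratios of -1.19 (-1.43 to -0.95), -1.43 (-2.04 to -0.88), -0.89 (-1.03 to -0.76) and -1.65 (-1.83 to -1.47), although the P1 maxillary ratio was 1.10 without shared barcodes. Mesenchymal levels were 23.6 and 26.8 at E15.5 and 35.6 and 38.7 at P1, log2 ratios of 0.59 (0.50 to 0.69) and 0.53 (0.43 to 0.64). Without shared barcodes the maxillary ratio was -0.42. Mineralizing-mesenchyme-like cells had 86.4 (77.3 to 96.3) in E15.5 mandibular, 70.6 (64.9 to 76.7) in P1 maxillary and 86.6 (79.9 to 93.6) in P1 mandibular molars. Tendon-like cells had 70.8, 67.1 (57.5 to 77.7) and 78.7 (70.0 to 88.2) in E15.5 maxillary, E15.5 mandibular and P1 mandibular molars. Their intervals overlapped those of mineralizing-mesenchyme-like cells in both mandibular libraries. Both classes stood above mesenchyme without a subclass, which had 22.7, 16.9, 18.4 and 22.0 in the 4 libraries.

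In mesenchyme, 396 of 9645 genes (4.11%) were at least 2-fold higher at P1 in both jaws and 1.45% at least 2-fold lower. St3gal5 and St3gal2 reached the mean of 10 CPM there, and neither was among those genes. St8sia1 and B4galnt1 had ratios past 2-fold in both jaws but means below that limit, and the maxillary B4galnt1 ratio rested on the shared barcodes, as given below.

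Muscle and Schwann-glia-like cells carried steady St3gal5. Muscle had 67.1, 65.7, 60.8 and 57.9, and Schwann-glia-like cells had 42.4, 51.7, 48.2 and 47.6, with overlapping intervals across the 4 libraries in each class. Endothelium had 39.1 to 45.6 and macrophages 23.8 to 37.6. Pericytes were low, at 5.25 to 10.9, and the other leukocytes of the E15.5 mandibular library (142 cells) had 95.2 (80.5 to 112). Erythroid cells had 21.2, 20.5, 25.2 and 53.2, so a background from free RNA could not be read from them for this gene.

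B4galnt1, which adds N-acetylgalactosamine to GM3 and GD3, was highest in macrophages among the classes found in all 4 libraries. Macrophage levels were 23.6 (19.2 to 28.6), 29.7 (24.4 to 35.9), 20.5 (15 to 27.2) and 34.5 (28.6 to 41.2) in E15.5 maxillary, E15.5 mandibular, P1 maxillary and P1 mandibular molars. The other leukocytes of E15.5 mandibular molars had 30.0 (22.1 to 39.9). Endothelium had 0.371, 0, 0.206 and 1.93, and muscle had 0.158, 0.173, 1.70 and 0, so B4galnt1 was nearly absent from the endothelial cells in which St8sia1 was found.

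In epithelium B4galnt1 stood at 6.07 (4.91 to 7.42) and 10.7 (7.16 to 15.3) at E15.5 and at 5.05 (4.25 to 5.95) and 5.88 (4.92 to 6.96) at P1. The log2 ratios of P1 to E15.5 were -0.27 (-0.65 to 0.13) and -0.86 (-1.45 to -0.23), the latter being 0.043 with each cell thinned to 2000 UMIs. Ameloblast-like cells were among the lower clusters, with 2.74 (1.25 to 5.20) and 2.14 (1.22 to 3.47). The mandibular gland-like cluster of 38 cells had 33.8 (21.4 to 50.7).

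In mesenchyme the direction was the opposite, with 2.72 (2.29 to 3.20) and 2.85 (2.38 to 3.39) at E15.5 against 8.38 (7.74 to 9.06) and 6.28 (5.66 to 6.96) at P1. The log2 ratios were 1.63 (1.36 to 1.90) and 1.14 (0.85 to 1.44), but without shared barcodes, with 30 P1 UMIs left, the maxillary one was 0.081. The dental-papilla-like classes, made of partly different clusters in the jaws, had 11 (10.0 to 12.1) in P1 maxillary and 9.81 (8.60 to 11.1) in P1 mandibular molars, against 2.84 (1.47 to 4.95) in E15.5 mandibular molars. Epithelium was above mesenchyme at E15.5 by 1.16 (0.77 to 1.54) and 1.91 (1.27 to 2.50), both falling to 0.38 with thinning, and at P1 the ratios were -0.73 (-1.01 to -0.47) and -0.10 (-0.39 to 0.19), the former being 0.96 without shared barcodes.

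**Figure D4:**
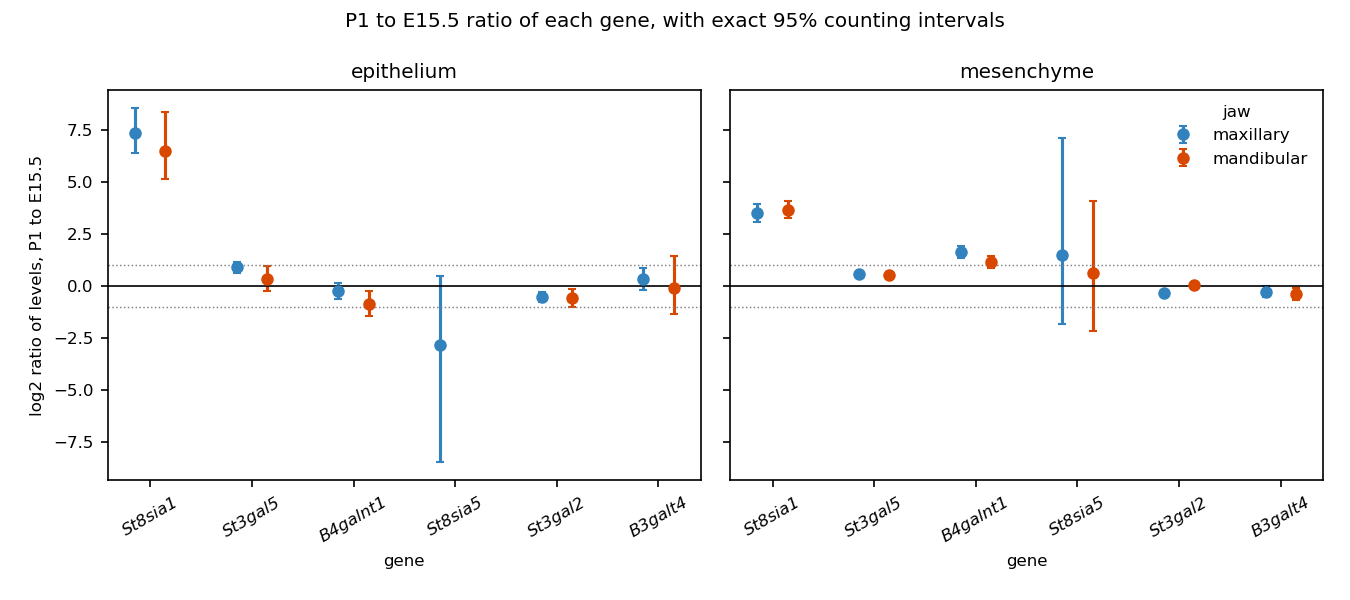
Log2 ratio of the P1 to the E15.5 level of each gene in epithelium and in mesenchyme of the maxillary and mandibular molar, with exact 95% intervals. St8sia1 stands far above the other genes in epithelium (7.35 and 6.48), and in mesenchyme St8sia1 (3.49 and 3.65) and B4galnt1 (1.63 and 1.14) lie above 1 in both jaws, the maxillary B4galnt1 value being 0.081 without shared barcodes.

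St3gal2, which adds a terminal sialic acid to complex gangliosides, was highest in pericytes among the classes found in all 4 libraries, with 38.9, 35.9, 42.7 and 40.7. Mesenchyme had 27.7, 26.1, 21.6 and 26.9, Schwann-glia-like cells had 29.5, 35.4, 27.0 and 32.9, and erythroid cells had 1.13 to 2.46. Pericyte intervals overlapped those of Schwann-glia-like cells in each library.

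Epithelial St3gal2 was lower at P1, at 11.4 (10.2 to 12.8) and 14 (12.5 to 15.7) against 16.4 (14.5 to 18.5) and 21 (15.9 to 27.2) at E15.5. The log2 ratios of -0.52 (-0.76 to -0.28) and -0.58 (-0.99 to -0.15) were below 0 by more than counting error but short of 2-fold. St3gal2 stood at 5.79 (3.48 to 9.04) and 3.34 (2.16 to 4.93) in ameloblast-like cells, against 15.7 (13.4 to 18.4) and 26.1 (22.4 to 30.3) in the Odam-led clusters. Ameloblast-like cells lay below the unsubclassed epithelium by log2 ratios of -1.38 (-2.15 to -0.70) and -2.71 (-3.37 to -2.12). Low St3gal2 was also found in clusters with little St8sia1, at 5.85 (1.90 to 13.7) in mandibular suprabasal-oral-epithelium-like and 5.88 (1.60 to 15) in gland-like cells, and at 9.37 in the Reg3g-led and 9.88 in the Gstm1-led cluster.

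Inner-dental-epithelium-like cells of maxillary molars had 21.4 (17.4 to 26.1) at E15.5 and 7.66 (5.77 to 9.97) at P1, a log2 ratio of -1.48 (-1.99 to -0.99). St8sia1 and St3gal2 thus stood in opposite order between stages in this cluster. In P1 mineralizing-mesenchyme-like cells St3gal2 was also low, at 10.4 and 12.1, against 30.3 and 37.7 in mesenchyme without a subclass.

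B3galt4, the galactosyltransferase that makes GM1 and GD1b, was low in every class. Epithelium had 3.06, 2.21, 3.84 and 2.06, mesenchyme had 4.62, 4.80, 3.82 and 3.64, and macrophages had 6.40, 6.61, 7.40 and 7.35. Muscle had 1.27, 0.606, 1.70 and 1.22 and erythroid cells had 0.124, 0, 1.23 and 0.319, with intervals below those of macrophages at E15.5 in both jaws and in P1 mandibular molars. The log2 ratios of P1 to E15.5 were 0.32 (-0.18 to 0.85) and -0.10 (-1.33 to 1.42) in epithelium and -0.28 (-0.53 to -0.02) and -0.40 (-0.68 to -0.12) in mesenchyme. The interval was below 0 in mesenchyme of both jaws, by less than 2-fold, but the maxillary ratio was 0.051 without shared barcodes.

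St8sia5 had its highest levels in Schwann-glia-like cells of the embryo. They had 13 UMIs (5.41 CPM, 2.88 to 9.24) in E15.5 maxillary and 20 (9.32, 5.69 to 14.4) in E15.5 mandibular molars, and 1 UMI in each P1 library (0.642 and 0.915). The log2 ratios of P1 to E15.5 were -3.07 (-8.48 to -0.34) and -3.35 (-8.72 to -0.71). Muscle had 3, 18, 0 and 7 UMIs and epithelium 4, 0, 1 and 2, and endothelium, pericytes and erythroid cells had 0 in each library, with upper limits of 0.298 to 4.84. At this depth no stage difference in epithelium was detectable for St8sia5.

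The 8 genes whose levels most resembled St8sia1 included 3 of the 6 ameloblast markers, Ambn, Mmp20 and Enam, but not Amelx, Sp6 or Odaph. Over 53 points (cell classes of at least 50 cells in each library) and 10001 genes, the Pearson r of log2(CPM + 1) with St8sia1 was 0.85 for Fam189a2, 0.83 for Gm40193, 0.82 for Ambn, which encodes the enamel matrix protein ameloblastin, and 0.81 for the growth factor gene Bmp8a. The enamel genes Mmp20 and Enam followed with 0.80 each, then Calb1, a calcium-binding protein of ameloblasts, with 0.79, and Nudt4 with 0.78. The other members ranged from -0.23 (St8sia5) to 0.11 (St3gal5). The points share libraries and depth and are not independent, and whether free RNA enters them was not tested. They also include the epithelial levels by which St8sia1 was chosen, so these values are descriptions.

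These genes differed from each other in mesenchyme. There, Ambn stood at 2.81, 2.83, 61.9 and 69.2 in the 4 libraries, while Enam stood at 0.0189, 0.0898, 0.945 and 6.49 and Mmp20 at 0, 0, 0.639 and 14. Fam189a2 had 3.90, 7.37, 79.8 and 87.3 in epithelium and 1.96, 1.82, 12.5 and 14.7 in mesenchyme. Gm40193 had 0.0189, 0.359, 70.7 and 80.1 in mesenchyme, and Nudt4 had 125, 121, 482 and 315 there.

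A set of 36 other genes of ganglioside metabolism was examined in 7 lists. In epithelium 20 of them reached a mean of 10 CPM, and 0 were at least 2-fold higher and 0 at least 2-fold lower at P1 in both jaws, against the 4.46% and 2.49% of all genes. In mesenchyme 24 reached it, with 1 higher and 0 lower, against 4.11% and 1.45%. With so few genes these counts are near the background shares. The one was St6galnac3, a sialyltransferase that acts late on gangliosides and other glycans, at 96.5 and 73.5 at E15.5 and 225 and 178 at P1, log2 ratios of 1.22 (1.18 to 1.27) and 1.27 (1.22 to 1.33). In epithelium St6galnac3 had 26.2, 50.9, 26.1 and 24.4.

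The genes for the supply of lactosylceramide that were tested differed by less than 2-fold between stages. Ugcg, the glucosylceramide synthase, had 24.5, 22.5, 28.6 and 29.5 in epithelium, and the lactosylceramide synthase gene B4galt6 had 12, 12.5, 17.0 and 19.2. B4galt5, the other lactosylceramide synthase, had 5.68, 4.42, 7.07 and 1.58. Of this list 2 of 3 genes were tested in epithelium, with median log2 ratios of 0.36 and 0.50 in maxillary and mandibular molars.

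Of the genes for the supply of sialic acid, 4 were tested in epithelium, with 0 at least 2-fold higher and 0 at least 2-fold lower in both jaws. Cmas, which activates sialic acid, had 48.0, 60.8, 38.1 and 30.7, and Nans, the sialic acid synthase, had 39.9, 33.2, 32.8 and 26.3. Slc35a1, which carries the activated sugar into the Golgi, had 16.7, 11.1, 18.4 and 12.5, with ratios of 0.14 and 0.18. The median log2 ratios of the 4 were -0.31 and -0.44, against 0.05 and 0.00 for all genes.

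The O-acetylation pair, which makes the acetylated form of GD3, had median ratios of 0.63 and 0.53. Casd1, the sialic acid O-acetyltransferase, had 38.4, 40.9, 45.5 and 46.9, and Slc33a1, the transporter of the acetyl donor, had 11.1, 16.6, 22.3 and 30.0. The ratio of Slc33a1 was 1.01 (0.76 to 1.26) in maxillary and 0.86 (0.42 to 1.32) in mandibular epithelium, so 2-fold was reached in 1 jaw.

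Of the 12 breakdown genes, 9 were tested in epithelium, with medians of 0.12 and 0.41. Psap, the precursor of the saposins, had 123, 137, 120 and 137, and Asah1, acid ceramidase, had 45.1, 35.4, 49.1 and 50.4. Named after its values were seen, Galc, the galactosylceramidase, had 9.90, 22.8, 32.5 and 44.6, with log2 ratios of 1.71 (1.47 to 1.97) and 0.97 (0.59 to 1.36). In mesenchyme 7 of the 12 were tested, with medians of -0.22 and -0.13.

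The competing glycolipid branches were sparse, and none of their 4 genes was tested in either compartment. B3gnt5, which opens the lacto-series, had 1.47, 2.58, 5.54 and 4.52 in epithelium, Gal3st1, the sulfatide sulfotransferase, had 0.830, 1.11, 1.53 and 1.40, and A4galt, the Gb3 synthase, had 0.383, 1.11, 1.28 and 1.36. Of 3 further genes of the St8sia family, the polysialyltransferase genes St8sia2 and St8sia4 were below the limit for testing in epithelium. There St8sia2 had 9.13, 12.2, 7.04 and 6.10 and St8sia4 had 2.62, 4.79, 0.604 and 0.570. The log2 ratios of St8sia4 were -2.12 (-3.02 to -1.27) in maxillary and -3.07 (-4.30 to -1.84) in mandibular epithelium. St8sia6, which adds a single sialic acid, mainly on O-glycans, had 2.94, 1.47, 17.7 and 8.82, log2 ratios of 2.59 (2.16 to 3.06) and 2.58 (1.20 to 4.47), with a mean below the limit for testing.

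The remaining sialyltransferases were not moved past 2-fold in both jaws in epithelium. St3gal1 had 17.1, 44.2, 40.3 and 52.5, with log2 ratios of 1.24 (1.04 to 1.43) and 0.25 (-0.02 to 0.53), and St3gal3 had 55.9, 71.1, 63.4 and 79.8. Of the 3 members and 20 other genes tested in epithelium, St8sia1 was the one at least 2-fold higher at P1 in both jaws. Its choice by this comparison fixed that outcome, and it passed the limit on the mean only through its P1 levels. The same limit left out St8sia6, with log2 ratios of 2.59 and 2.58.

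**Figure D5:**
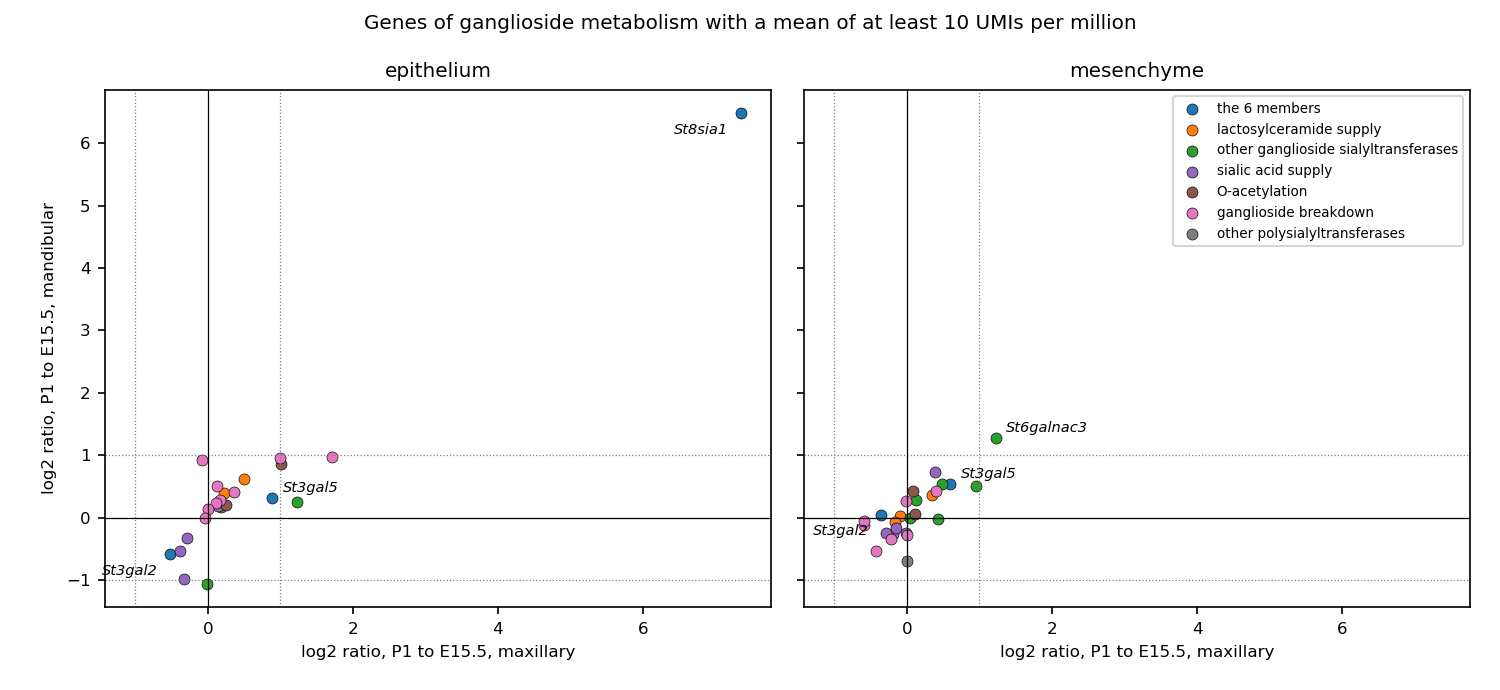
Log2 ratio of P1 to E15.5 in maxillary (x axis) against mandibular molars (y axis) for the 6 members and the other genes of ganglioside metabolism with a mean of at least 10 CPM, in epithelium and in mesenchyme; dotted lines mark 2-fold. St8sia1, chosen by this comparison, lies alone at 7.35 and 6.48 in epithelium, where St8sia6 (2.59 and 2.58) is below the limit on the mean. St6galnac3 is the gene past both lines in mesenchyme.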

How the data were processed

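The authors deposited 1 table of raw UMI counts per library (10x 3' v3.1, Cell Ranger 7.0.1, mm10), not normalized. Whether intronic reads were counted is not given in the sources used here. No column came from another sample (0). Barcodes under 1000 UMIs were left out, and barcodes shared by the P1 libraries were dropped from P1 mandibular. Doublets were not removed.

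Each library was clustered with scanpy 1.11.5 (2000 variable genes without mitochondrial, ribosomal and ganglioside genes, 40 components, 15 neighbours, Leiden resolution 1). Clusters were named where at least 3 markers gave a score of at least 0.4, limits set after the clusters were seen. UMIs were summed per class and scaled to 1000000 (CPM), with exact Poisson intervals; ratios have exact conditional binomial intervals. A level of 0 was set at 3 counts for bounds. The members and lists were chosen with earlier results of these data known. Genes named were the members, list genes past 2-fold or else the 3 most abundant of a list, and the 8 most like St8sia1; some list genes are not reported here. The ratio intervals and the 2-fold rule were tested on simulated counts, and the code for levels was not.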

Additional observations from a re-analysis of the deposited data

Results flagged for a closer look

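B4galnt1 had stage ratios of opposite direction in the 2 main compartments. In epithelium its log2 ratio of P1 to E15.5 was -0.27 (-0.65 to 0.13) in the maxillary and -0.86 (-1.45 to -0.23) in the mandibular molar, and in mesenchyme it was 1.63 (1.36 to 1.90) and 1.14 (0.85 to 1.44). With 1 library per stage and jaw the difference between compartments was not tested, the maxillary epithelial interval includes 0, and the mandibular epithelial ratio was 0.043 with each cell thinned to 2000 UMIs. Without the barcodes shared by the P1 libraries, the maxillary mesenchymal ratio was 0.081.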

How the results depend on the processing

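No paired analysis was possible because each stage and jaw has 1 library. Of 658 ratios recomputed under the alternatives for 68 results, 565 moved by less than their counting interval, 84 moved by more and 9 changed sign. Of 480 levels, 112 moved by more than their interval.

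With shared barcodes dropped from both P1 libraries, the St8sia1 log2 ratio of P1 to E15.5 was 4.47 in maxillary epithelium and 1.06 in maxillary mesenchyme, the P1 maxillary to mandibular ratio was -3.53 in epithelium and -3.02 in mesenchyme, and the P1 maxillary ratio of epithelium to mesenchyme was 2.50. With each cell thinned to 2000 UMIs, the stage ratio in epithelium was at least 5.58 (maxillary) and 3.82 (mandibular), since no E15.5 UMI was left. The thinned P1 jaw ratio was -1.18 in epithelium and -0.75 in mesenchyme, and the ratio of epithelium to mesenchyme was at most 0.75 and 3.63 at E15.5 and was 3.23 and 3.66 at P1, in maxillary and mandibular molars. As a mean over cells, the stage ratio in maxillary mesenchyme was 2.81, the P1 jaw ratio was -1.22 in epithelium and -1.06 in mesenchyme, and the P1 ratio of epithelium to mesenchyme was 3.30 and 3.46. With low-quality cells and likely doublets removed, that last ratio was 3.34 and 3.38. Without gland- and nasal-like clusters, the P1 jaw ratio in epithelium was -0.46 and the P1 maxillary ratio of epithelium to mesenchyme was 3.18. With the mixed clusters kept in their best class, an alternative chosen after seeing the data, the P1 jaw ratio was -0.87 and the P1 mandibular ratio of epithelium to mesenchyme was 3.14. The St8sia1 stage ratios stayed above 1 under these settings. Without the limit on low levels, 2 members (St8sia1 and B4galnt1) were at least 2-fold higher at P1 in mesenchyme, among 1685 of 26955 genes.

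The 9 sign changes were among other members. With shared barcodes dropped from both libraries, the maxillary mesenchymal stage ratio was -0.42 for St3gal5, 0.11 for St3gal2 and 0.051 for B3galt4 (that of B4galnt1 was 0.081, with no sign change), the P1 jaw ratio in mesenchyme was -1.13 for B4galnt1 and 0.15 for St3gal2, and the P1 maxillary ratio of epithelium to mesenchyme was 1.10 for St3gal5 and 0.96 for B4galnt1. With thinning, the mandibular epithelial stage ratio of B4galnt1 was 0.043 and its P1 mesenchymal jaw ratio was -0.0066. The causes were not tested. Counting depth limits the ratios that rest on few UMIs, such as those of St8sia5 and of St8sia1 in E15.5 epithelium (8 and 4 UMIs), and 1 library per group limits all.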
